A study of Homo sapiens with 30 samples.

Results

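The genes described are 9 that encode proteins of epithelial cell contacts: CDH1, EPCAM, CLDN1, CLDN4, CLDN7, OCLN, TJP1, F11R and CGN. They were chosen by name, and all 9 were found by symbol among the 26249 gene rows of the RNA-seq table. The 4 RWPE1 lines were compared by RNA-seq of polyA-selected RNA. RWPE1 is an immortalized line from normal prostate epithelium. RWPE1-Vector is the vector control, RWPE1-ERG carries ERG isoform 1, RWPE1-mAKT carries myristoylated AKT (mAKT), and RWPE1-ERG/mAKT carries both inserts. ERG was expressed from the retroviral vector pQCXIH, and pBabe-puro served as a vector control. Transduced cells were kept under hygromycin and puromycin. The methods of the study do not list the empty vectors of each line. ERG, a transcription factor of the ETS family, is expressed in prostate tumors with the TMPRSS2/ERG fusion, and myristoylation holds AKT at the membrane in an active state. The table gives 1 FPKM value (fragments per kilobase of transcript, scaled to the mapped fragments of the library) per gene and line, which the authors pooled over 3 libraries. No spread between libraries can be drawn from it, so no difference between lines could be tested, and the ratios describe the pooled values only. The peak lists come from 1 library per line: ATAC-seq, which marks open chromatin, in the 3 lines with a transgene (the ATAC-seq of RWPE1-Vector was not analysed here, so open chromatin has no control line), and ChIP-seq of ERG in RWPE1-ERG/mAKT and in VCaP cells given the vehicle DMSO, of the kinase ERK2 in RWPE1-Vector and RWPE1-ERG, and of the repressive histone mark H3K27me3 in RWPE1-Vector, RWPE1-ERG and RWPE1 cells with the phosphomimetic ERG S96E. VCaP is a prostate cancer line with the TMPRSS2/ERG fusion.

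Adherens junctions and tight junctions join neighbouring epithelial cells. At the adherens junction E-cadherin, the product of CDH1, binds E-cadherin of the next cell and is tied to actin through catenins. At the tight junction, nearer the apical side, claudins (CLDN1, CLDN4 and CLDN7) form strands that set how permeable the layer is to ions, with occludin (OCLN) and the junctional adhesion molecule JAM-A (F11R) beside them. ZO-1 (TJP1) and cingulin (CGN) are scaffolds on the cytoplasmic face, and EPCAM is an adhesion protein of the lateral membrane that binds claudin-7. Loss of E-cadherin and claudins, often with gain of N-cadherin, is a textbook sign of epithelial to mesenchymal transition.

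The transgenes and the cell type were checked first. ERG had an FPKM of 0.264 in RWPE1-Vector and 0.435 in RWPE1-mAKT, against 357.6 in RWPE1-ERG and 328.0 in RWPE1-ERG/mAKT. AKT1 had an FPKM of 58.7 and 64.2 in the lines without mAKT, and of 156.3 in RWPE1-mAKT and 281.0 in RWPE1-ERG/mAKT. The AKT1 value was therefore not equal in the mAKT lines. All 5 keratin and p63 markers of prostate epithelium were above an FPKM of 1 in some line, while KLK3, a marker of secretory luminal cells, was listed at 0 in all 4 lines. Of the 13 fibroblast, endothelial and immune markers only COL1A1, at 1.78 to 2.18, and CD14, at 0.505 to 1.09, passed an FPKM of 1, and their defining markers DCN, PECAM1 and PTPRC stayed at or under 0.0253. Summed over each list, FPKM was 1.82 to 2.19 for the fibroblast, 0.0331 to 0.116 for the endothelial and 1.06 to 1.52 for the immune markers across the lines. In these bulk samples, a change in the share of cells that express a gene and a change in RNA per cell cannot be told apart.

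Sequences under ERG peaks near these genes are shown because the ERG data of the 9 genes rest on them, and of the 5 peaks shown 1, that 7.8 kb after the CLDN4 start, had a q-value of at most 0.01. The 5 windows below span 201 bp around the summit of an ERG peak of RWPE1-ERG/mAKT cells, on the plus strand of hg19 (GRCh37), and all 5 peaks overlapped an ATAC-seq peak in each of the 3 lines analysed. Capitals mark GGAA or its complement TTCC, the core that ETS factors recognise, and TGANTCA, a pattern for the AP-1 element, on either strand. Here N is any base, so the pattern is looser than a fixed AP-1 sequence. The first 2 lie in intron 2 of CDH1, at chr16:68794769-68794969 and chr16:68824114-68824314. The next lies in intergenic sequence before CLDN4, at chr7:73242601-73242801, and the fourth beyond CLDN4 in intron 5 of METTL27, at chr7:73253071-73253271. The last lies at chr15:30226552-30226752, before the start of the canonical TJP1 transcript but within the locus that the RNA-seq table gives this gene.
CDH1, 23.7 kb after the start: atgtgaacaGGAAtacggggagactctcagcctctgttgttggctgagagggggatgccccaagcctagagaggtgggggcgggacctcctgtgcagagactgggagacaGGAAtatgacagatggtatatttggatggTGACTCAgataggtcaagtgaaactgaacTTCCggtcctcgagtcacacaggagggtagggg
CDH1, 53.0 kb after the start: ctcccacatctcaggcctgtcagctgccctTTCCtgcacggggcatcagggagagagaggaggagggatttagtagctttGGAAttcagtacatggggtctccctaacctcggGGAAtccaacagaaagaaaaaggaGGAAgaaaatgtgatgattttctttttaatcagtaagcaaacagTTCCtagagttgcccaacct
CLDN4, 2.6 kb before the start: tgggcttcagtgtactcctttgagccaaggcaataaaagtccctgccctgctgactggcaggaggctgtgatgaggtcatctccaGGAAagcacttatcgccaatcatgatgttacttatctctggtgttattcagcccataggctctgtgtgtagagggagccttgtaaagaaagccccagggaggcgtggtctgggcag
CLDN4, 7.8 kb after the start: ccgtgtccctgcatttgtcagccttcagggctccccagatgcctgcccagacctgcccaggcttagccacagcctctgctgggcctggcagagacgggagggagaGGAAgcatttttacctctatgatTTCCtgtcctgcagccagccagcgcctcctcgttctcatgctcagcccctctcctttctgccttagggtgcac
TJP1, 112.0 kb before the start: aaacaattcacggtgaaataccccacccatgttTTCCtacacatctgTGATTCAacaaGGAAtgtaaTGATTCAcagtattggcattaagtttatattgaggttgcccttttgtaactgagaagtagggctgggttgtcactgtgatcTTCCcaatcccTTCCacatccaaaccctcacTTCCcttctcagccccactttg

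Each of these 5 windows holds the ETS core, as did 7 of all 8 ERG windows near the 9 genes and 87.5% of the 9113 windows of the whole list. TGANTCA was found in 2 of the 8 windows, at CDH1 and at TJP1, and in 12.7% of all windows. The TJP1 window holds it at 2 positions on either side of a GGAA, both as TGATTCA. This window was also the 1 of the 8 with GGAAGTGA, read here from the minus strand, which 2.33% of all windows held. GGAAGTGA is an ETS core joined to a part of the AP-1 element. The E-box CAGGTG, which the repressors SNAI1, SNAI2, ZEB1 and ZEB2 recognise, was in 2 of the 8 windows and in 15.5% of all. These matches describe the letters in the windows and are not evidence of which protein was bound.

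Promoters are shown for the 3 genes whose FPKM differed most across the lines, CLDN1, CGN and CLDN4. The RefSeq promoter table on GRCh38.p14 matched 6 of the 9 genes with 11 promoters, and the sequences are the 250 bases before the start, 5′ to 3′ on the strand of the gene. Capitals mark the same elements as above and, in addition, the E-box CAGGTG on either strand. CLDN1 is read from the minus strand at chr3:190322447-190322696, CLDN4 from the plus strand at chr7:73830746-73830995 and CGN from the plus strand at chr1:151511137-151511386, all in GRCh38.p14 coordinates.
CLDN1: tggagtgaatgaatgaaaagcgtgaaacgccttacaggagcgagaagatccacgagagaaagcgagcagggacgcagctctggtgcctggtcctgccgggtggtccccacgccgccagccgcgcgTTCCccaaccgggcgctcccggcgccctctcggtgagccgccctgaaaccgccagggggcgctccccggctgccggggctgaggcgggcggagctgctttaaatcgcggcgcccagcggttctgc
CLDN4: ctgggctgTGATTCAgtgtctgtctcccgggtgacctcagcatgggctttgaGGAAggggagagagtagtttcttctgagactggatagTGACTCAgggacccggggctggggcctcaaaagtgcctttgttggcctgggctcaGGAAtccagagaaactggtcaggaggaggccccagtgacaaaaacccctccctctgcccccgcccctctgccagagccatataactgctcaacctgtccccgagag
CGN: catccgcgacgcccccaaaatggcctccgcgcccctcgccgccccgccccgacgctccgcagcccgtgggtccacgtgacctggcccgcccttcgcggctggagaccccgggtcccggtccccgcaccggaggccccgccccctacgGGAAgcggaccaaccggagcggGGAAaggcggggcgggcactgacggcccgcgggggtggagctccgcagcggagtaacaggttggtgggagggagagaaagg

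The CLDN4 promoter holds TGANTCA at 2 positions, as TGATTCA and as TGACTCA. No other of the 11 promoters holds it, against 6.57% of the 35116 promoters in the table. CAGGTG was found in none of these 3 promoters, at 4 positions in 1 of the 2 CLDN7 promoters, at 1 position in each of the 2 OCLN promoters and at 1 position in 1 of the 4 TJP1 promoters, and 17.5% of all promoters held it. GGAA was in all 11 and in 92.7% of all promoters, and GGAAGTGA was in none of the 11 and in 2.89% of all.

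All 9 genes had their lowest FPKM in RWPE1-Vector. Across the lines the ratio of the highest to the lowest value, after 0.1 was added to each FPKM, ran from 1.16 for F11R to 5.06 for CLDN1. CLDN7 was the most abundant of the 9 in every line and CGN the least, on the FPKM scale, which is per transcript length. In RWPE1-Vector the order was CLDN7, EPCAM, F11R, CDH1, TJP1, CLDN4, CLDN1, OCLN and CGN, and in RWPE1-ERG/mAKT CLDN1 stood above TJP1 and CLDN4. With 1 pooled value per line, whether neighbours in this order differ beyond the spread between libraries cannot be said.

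**Figure D1:**
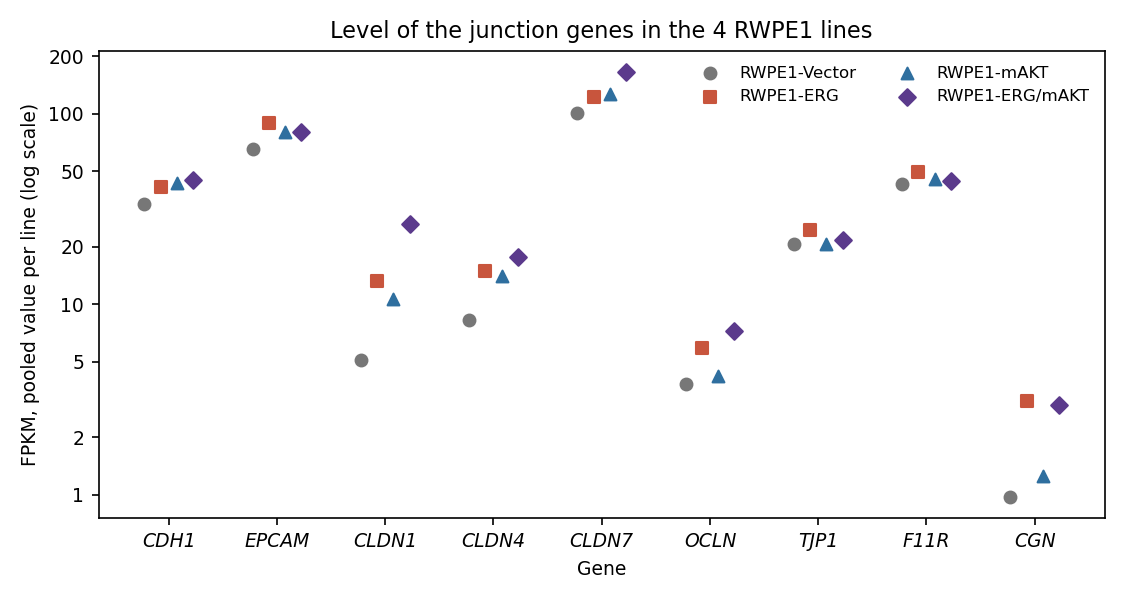
FPKM of each of the 9 junction genes (x axis) in the 4 RWPE1 lines, on a log axis, with 1 pooled value per line as a point and no error bar because the table gives none. The grey RWPE1-Vector point is the lowest for each gene, and the widest range is that of CLDN1, from 5.11 to 26.3.

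A call was made where the ratio of (FPKM + 0.1) between 2 lines was at least 1.5, among genes that reached an FPKM of 1 in either line. All 9 genes passed this filter in each of the 5 comparisons, CGN against RWPE1-Vector only through the other line. In RWPE1-ERG over RWPE1-Vector 4 of the 9 were higher by this limit (CLDN1, CLDN4, OCLN and CGN) and 0 lower, where 9.3% of the 12371 genes compared were higher and 4.87% lower. In RWPE1-mAKT over RWPE1-Vector 2 of the 9 were higher (CLDN1 and CLDN4) and 0 lower, against 3.03% and 2.89% of all genes. In RWPE1-ERG/mAKT over RWPE1-Vector 5 of the 9 were higher (CLDN1, CLDN4, CLDN7, OCLN and CGN) and 0 lower, against 7.13% and 5.06% of all genes. The members' share was above the background in each of these comparisons, which all use the same RWPE1-Vector value and so are not separate evidence.

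When any ratio above 1 was counted, all 9 were higher than RWPE1-Vector in RWPE1-ERG, in RWPE1-mAKT and in RWPE1-ERG/mAKT, where 48.5%, 55% and 39.4% of all genes were. When the ratios were centred on the median of all genes, 8 of the 9 were above RWPE1-Vector in RWPE1-mAKT, with TJP1 at -0.01. The median log2 ratio of the 9 over RWPE1-Vector was 0.46 in RWPE1-ERG, 0.32 in RWPE1-mAKT and 0.71 in RWPE1-ERG/mAKT, and the median over all genes was -0.01, 0.02 and -0.07. Within the 9, the smallest of these log2 ratios were those of TJP1 in RWPE1-mAKT, at 0.01, and of F11R in RWPE1-ERG/mAKT, at 0.04.

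The other comparisons ask what each transgene adds in cells that hold the other. When ERG was added to mAKT cells (RWPE1-ERG/mAKT over RWPE1-mAKT), 3 of the 9 were called higher (CLDN1, OCLN and CGN) and 0 lower, against 5.92% and 3.47% of all genes, and the median log2 ratio was 0.32 against -0.08 over all genes. When mAKT was added to ERG cells (RWPE1-ERG/mAKT over RWPE1-ERG), 1 of the 9 was higher (CLDN1) and 0 lower, against 5.89% and 9.24% of all genes, and the median was 0.12 against -0.05. In this last comparison 5 of the 9 log2 ratios were above 0 and 4 were below, the lowest at -0.17, so most of the 9 differed little between the ERG lines.

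**Figure D2:**
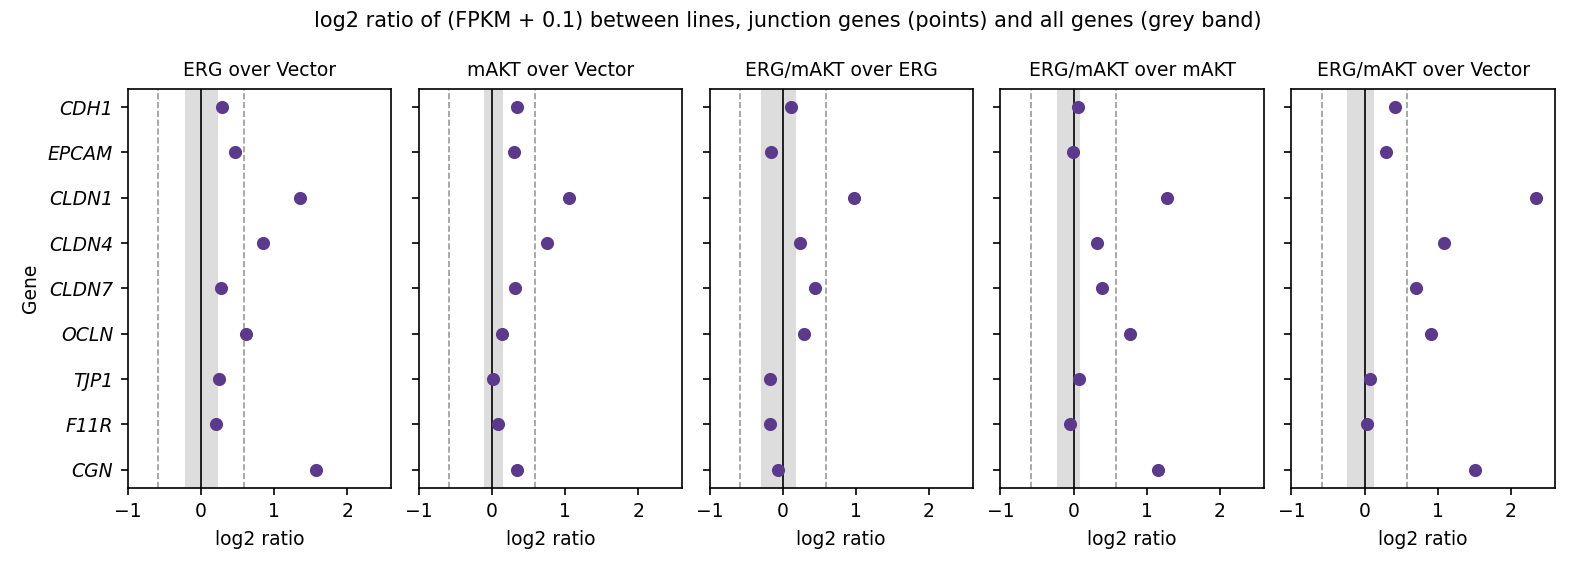
log2 ratio of (FPKM + 0.1) of each junction gene (points, y axis) in the 5 comparisons, with the middle 50% of all genes compared as a grey band and the 1.5-fold limits as dashed lines. CLDN1 lies beyond the upper limit in every panel and no junction gene lies beyond the lower limit.

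Of the claudins, which form the strands of the tight junction, CLDN1 differed most. Its FPKM was 5.11 in RWPE1-Vector, 13.3 in RWPE1-ERG, 10.7 in RWPE1-mAKT and 26.3 in RWPE1-ERG/mAKT. It was therefore higher with either transgene and highest with both. The log2 ratio for ERG was 1.36 without mAKT and 1.28 with it, and for mAKT it was 1.06 without ERG and 0.98 with it, so the value with both was close to the sum of the single changes on the log2 scale, with a difference of -0.08. The AKT1 FPKM was 156.3 in RWPE1-mAKT and 281.0 in RWPE1-ERG/mAKT, and the part of this inequality in the CLDN1 values was not tested. In the 5.06-fold ratio of RWPE1-ERG/mAKT over RWPE1-Vector, CLDN1 stood above 98.7% of all genes compared.

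CLDN4, a claudin that limits the passage of sodium in several epithelia, had an FPKM of 8.23 in RWPE1-Vector, 14.9 in RWPE1-ERG, 14.0 in RWPE1-mAKT and 17.6 in RWPE1-ERG/mAKT. Each transgene alone went with a ratio of 1.8 for ERG and 1.7 for mAKT, and the line with both stood at 2.12. The log2 ratio for ERG was 0.85 without mAKT and 0.32 with it, so the second transgene added less to CLDN4 than the first, on these pooled values. As for CLDN1, the part of the unequal AKT1 FPKM of the mAKT lines in this was not tested.

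CLDN7, the partner of EPCAM, had an FPKM of 101.1 in RWPE1-Vector, 121.9 in RWPE1-ERG, 126.6 in RWPE1-mAKT and 165.5 in RWPE1-ERG/mAKT. It passed the 1.5-fold limit only in the line with both transgenes, at 1.64 over RWPE1-Vector. The table's locus for CLDN7 is wider than the canonical transcript, and whether reads were counted by strand is not given in the sources used here, so reads of overlapping genes could add to this value.

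Occludin (OCLN), a membrane protein of the tight junction strands, had an FPKM of 3.83 in RWPE1-Vector, 5.91 in RWPE1-ERG, 4.21 in RWPE1-mAKT and 7.26 in RWPE1-ERG/mAKT. Both ERG lines stood above both lines without ERG. The log2 ratio for ERG was 0.61 without mAKT and 0.77 with it, and for mAKT it was 0.14 and 0.29. Its ratio of 1.53 in RWPE1-ERG lay just beyond the 1.5-fold limit, and with a pseudocount of 1 its log2 ratio of 0.52 no longer passed it.

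The cytoplasmic scaffolds did not follow each other. Cingulin (CGN), which links tight junctions to the actomyosin cytoskeleton, had an FPKM of 0.977 in RWPE1-Vector, 3.09 in RWPE1-ERG, 1.26 in RWPE1-mAKT and 2.96 in RWPE1-ERG/mAKT. It was 2.96-fold higher in RWPE1-ERG than in RWPE1-Vector and 2.24-fold higher in RWPE1-ERG/mAKT than in RWPE1-mAKT, while the log2 ratio for mAKT was 0.34 without ERG and -0.06 with it. ZO-1 (TJP1), the scaffold that claudins bind, had an FPKM of 20.6, 24.6, 20.8 and 21.8 in the same order of lines, a range of 1.19-fold.

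The remaining membrane proteins varied little. JAM-A (F11R) had an FPKM of 42.7 in RWPE1-Vector, 49.6 in RWPE1-ERG, 45.6 in RWPE1-mAKT and 44.1 in RWPE1-ERG/mAKT. E-cadherin (CDH1) had an FPKM of 33.7, 41.2, 43.0 and 44.9 in the same order, a ratio of 1.33 between the line with both transgenes and RWPE1-Vector. EPCAM had an FPKM of 65.0, 89.7, 80.3 and 80.0, with its highest value in RWPE1-ERG. CDH1 RNA was not lower in any line with a transgene than in RWPE1-Vector.

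The wider set of junction genes differed less uniformly. Of 10 other cadherins, 6 were compared in RWPE1-ERG over RWPE1-Vector, with 2 called higher (CDH2 and CDH4) and 1 lower (CDH11). Of all genes, 9.3% were higher and 4.87% lower there. CDH2, which encodes N-cadherin, had an FPKM of 3.04 in RWPE1-Vector, 7.38 in RWPE1-ERG, 0.61 in RWPE1-mAKT and 0.666 in RWPE1-ERG/mAKT. CDH4, which encodes R-cadherin, had an FPKM of 4.66, 8.79, 2.17 and 1.84 in the same order. Both were thus highest in RWPE1-ERG and low in the mAKT lines. CDH11, a cadherin of mesenchymal cells, was highest in RWPE1-Vector, with an FPKM of 3.51 there and of 1.44, 0.757 and 0.401 in the others. In RWPE1-mAKT and in RWPE1-ERG/mAKT, 3 of the 6 cadherins compared with RWPE1-Vector were lower (CDH2, CDH4 and CDH11) and 0 higher. Of all genes, 2.89% were lower and 3.03% higher in RWPE1-mAKT, and 5.06% and 7.13% in RWPE1-ERG/mAKT. The placental cadherin gene CDH3, which lies beside CDH1, was far more abundant than these, at 95.2 to 122.8.

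Of the 16 cadherin-catenin and nectin-afadin genes, the catenins CTNNA1, CTNNB1 and CTNND1 stayed within a range of 1.12 to 1.18-fold over the 4 lines. Between RWPE1-ERG/mAKT and RWPE1-Vector, 2 of 16 were higher and 1 lower, against 7.13% and 5.06% of all genes, and both higher genes passed the filter on low values only through RWPE1-ERG/mAKT. NECTIN4, an adhesion molecule of the nectin family, had an FPKM of 0.522 in RWPE1-Vector, 0.632 in RWPE1-ERG, 1.41 in RWPE1-mAKT and 4.18 in RWPE1-ERG/mAKT. PLEKHA7, which binds p120 catenin at the adherens junction, had 0.768, 0.863, 0.838 and 2.0, and the lower gene, NECTIN3, had 2.31, 2.52, 1.13 and 1.08. NECTIN4 was the gene of this list with the largest ratio, 6.89-fold between the line with both transgenes and RWPE1-Vector.

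Of the 20 other claudins, 4 reached an FPKM of 1 in any line: CLDN11, CLDN12, CLDN15 and CLDN23. CLDN11 was at 0.204 in RWPE1-Vector, 1.31 in RWPE1-ERG, 0.0424 in RWPE1-mAKT and 0.191 in RWPE1-ERG/mAKT, so it was called higher in RWPE1-ERG from a low level. CLDN23 was called higher in RWPE1-ERG/mAKT, at 1.42 against 0.738 in RWPE1-Vector. Both passed the filter only through the line in which they were high. Of the 9 other membrane proteins of the tight junction, 4 were compared with RWPE1-Vector and 0 were called in either direction in each of the 3 lines. Of all genes, 9.3% were higher and 4.87% lower in RWPE1-ERG, 3.03% and 2.89% in RWPE1-mAKT, and 7.13% and 5.06% in RWPE1-ERG/mAKT. A count of 0 of 4 is therefore near the background.

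Of the 18 scaffold and polarity genes, 1 of the 14 compared was higher in RWPE1-ERG than in RWPE1-Vector, and 0 were called in RWPE1-mAKT or RWPE1-ERG/mAKT. Of all genes, 9.3%, 3.03% and 7.13% were higher in these 3 lines, so the counts lie near the background. The 1 gene was PARD6B, part of the apical PAR complex, at 1.35 in RWPE1-Vector, 3.1 in RWPE1-ERG, 1.62 in RWPE1-mAKT and 1.54 in RWPE1-ERG/mAKT. The serine protease gene ST14 and its inhibitors SPINT1 and SPINT2 stayed within a range of 1.27 to 1.45-fold.

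**Figure D3:**
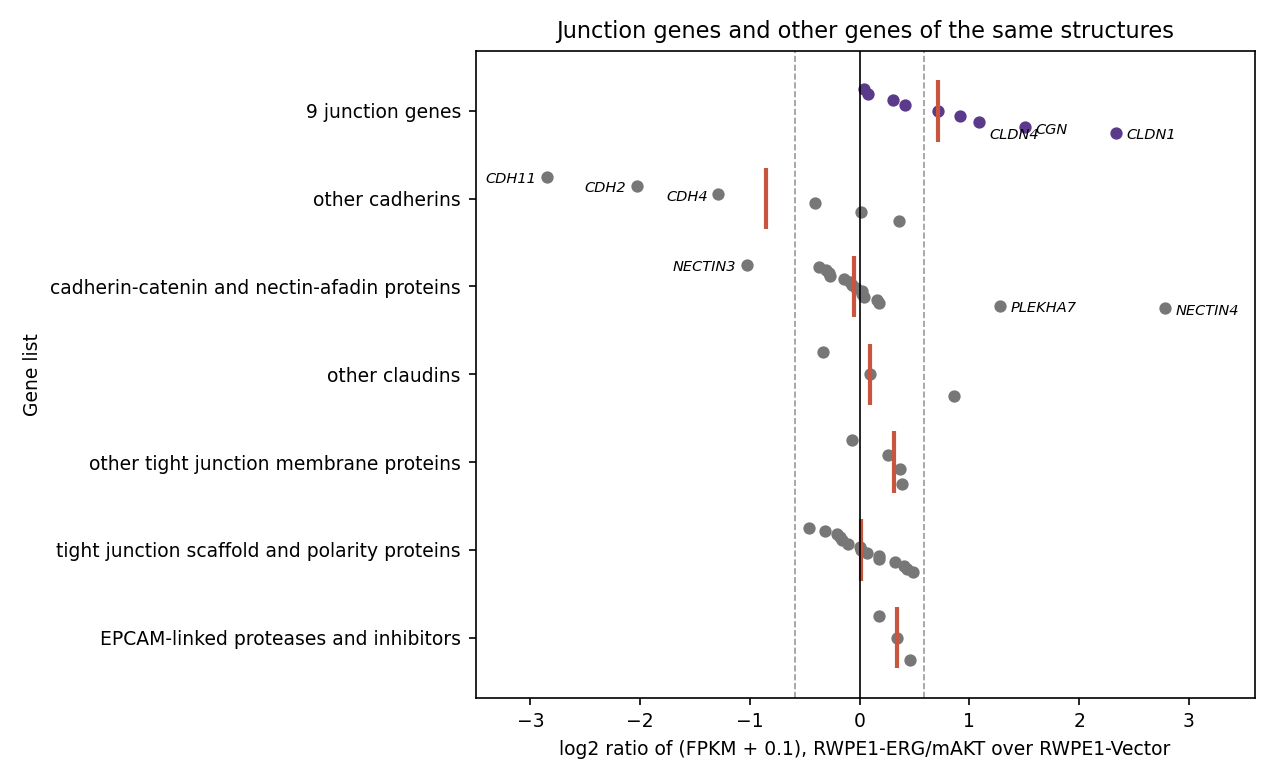
log2 ratio of (FPKM + 0.1) in RWPE1-ERG/mAKT over RWPE1-Vector for the 9 junction genes (purple) and for other genes of the same structures by list (grey), with each list's median as an orange bar and the 1.5-fold limits as dashed lines. The median is 0.71 for the 9 genes and -0.85 for the other cadherins, and genes that differ by at least 2-fold are named.

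Keratin and p63 genes also differed between some of the lines, and these values stand beside the ratios above. In RWPE1-ERG, KRT8 was at 1769.3 and KRT18 at 1843.2, against 622.4 and 817.0 in RWPE1-Vector, while the basal keratins were lower there, KRT5 at 1169.8 against 3126.0 and KRT14 at 699.5 against 2935.8. TP63, the p63 gene of basal cells, was at 36.3 in RWPE1-Vector, 21.3 in RWPE1-ERG and 38.0 in RWPE1-ERG/mAKT. In RWPE1-ERG/mAKT, KRT5 was at 3518.5, KRT14 at 1185.2, KRT8 at 920.8 and KRT18 at 957.9. In RWPE1-mAKT, KRT5 was at 3641.6, KRT14 at 2526.7, TP63 at 39.2, KRT8 at 670.6 and KRT18 at 986.6. Over RWPE1-Vector, 0 of these 5 were called higher or lower in RWPE1-mAKT, against 3.03% and 2.89% of all genes. The part of these keratin shifts in the junction gene values was not tested.

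The genes whose profile over the 4 lines was most like that of the 3 most variable junction genes were found by the root mean square difference of centred log2 values, among 11507 genes that reached an FPKM of 1 in each line. For CLDN1 these were MIR6753, TCF7L1 and EPN3, with differences of 0.092, 0.14 and 0.147. EPN3, for example, had an FPKM of 3.82 in RWPE1-Vector, 12.6 in RWPE1-ERG, 8.35 in RWPE1-mAKT and 19.1 in RWPE1-ERG/mAKT. For CGN they were SNORD83B, SNORD88C and IFI6, with differences of 0.056, 0.067 and 0.086, and for CLDN4 they were UCP2, ST6GALNAC2 and SNORD34, at 0.103, 0.103 and 0.107. Of these 9 genes, 4 are small RNA genes, and FPKM of such short genes is uncertain. With 4 points per profile, likeness of this kind is a description only.

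Open chromatin was found at these genes in each of the 3 lines whose ATAC-seq lists were used. All 9 genes had an ATAC-seq peak within 20 kb of the locus in all 3 lines, as did, in the order RWPE1-ERG, RWPE1-mAKT, RWPE1-ERG/mAKT, 98.4%, 98.3% and 97.7% of the 12666 genes that reached an FPKM of 1 somewhere. Within 1 kb of the gene start, 8 of the 9 had a peak in RWPE1-ERG and all 9 in the other lines, against 92.8%, 92.3% and 89.3% of genes, so the counts lie near the background. The exception was CLDN4, whose start had no listed peak in RWPE1-ERG and had peaks with a fold enrichment of 3.1 in RWPE1-mAKT and 3.24 in RWPE1-ERG/mAKT. At the CLDN1 start the fold enrichment was 6.64 in RWPE1-ERG, 4.26 in RWPE1-mAKT and 4.45 in RWPE1-ERG/mAKT. By fold enrichment the largest start peak of the 9 was that of OCLN in RWPE1-ERG, at 8.63, and by pileup that of F11R in RWPE1-ERG, at 272.1 against 175.2 for OCLN. The 3 lists differ in length, with 63354, 57999 and 42081 peaks, and were not scaled to each other.

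**Figure D4:**
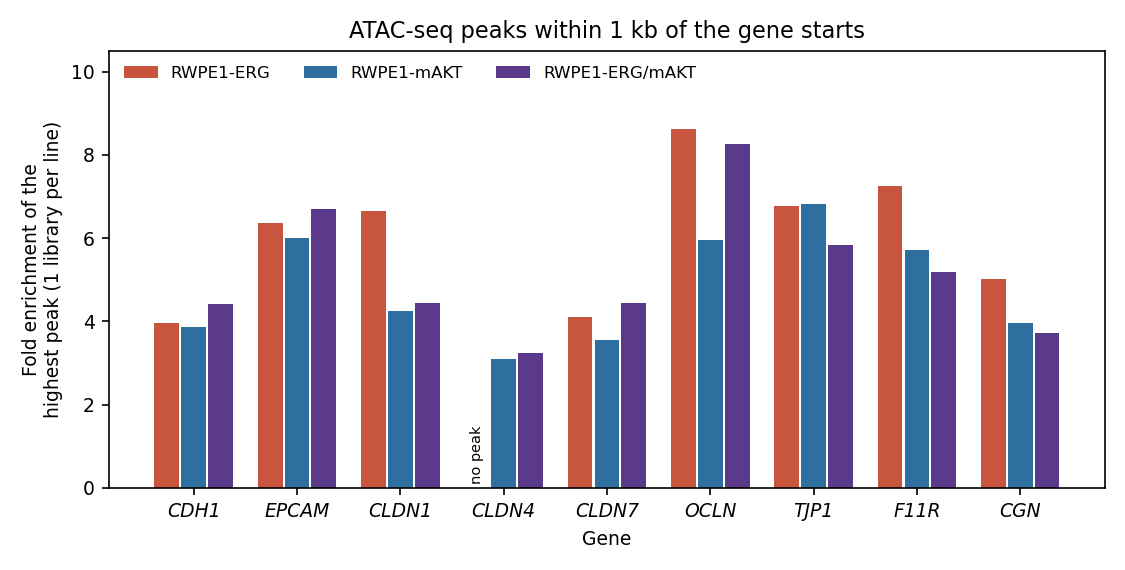
Fold enrichment of the highest ATAC-seq peak within 1 kb of each gene start (bars from 0) in the 3 lines with a transgene, 1 library per line, so there is no error bar. The bars run from 3.1 to 8.63, and the CLDN4 start has no listed peak in RWPE1-ERG.

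When ATAC-seq peaks of the 3 lines that overlap were merged, 76 open regions lay within 20 kb of the 9 loci, of which 47 (61.8%) had a peak in all 3 lines, 11 in 2 lines and 18 in 1 line. Near all genes expressed at this level, 53.5% of 41908 regions had a peak in all 3 lines. At CLDN1, 1 of 7 regions, that at its start, was open in all 3 lines. Of its other regions, 3 had peaks in RWPE1-ERG and RWPE1-mAKT but none in RWPE1-ERG/mAKT, where the list is shortest, and 1, centred 3.7 kb before the start, was listed in RWPE1-ERG/mAKT alone. CLDN4 had 5 of 6 regions and CLDN7 6 of 7 in all 3 lines.

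ERG peaks of RWPE1-ERG/mAKT cells lay within 20 kb of 3 of the 9 genes, CDH1, CLDN4 and TJP1, where 32.5% of genes had one, so the share is at the background. The 3 genes had 8 peaks in all. None lay within 1 kb of a gene start, where 1.88% of genes had one. Each peak rested on a pileup of 4 to 7 reads with a fold enrichment over input of 3.26 to 5.65. The peak 7.8 kb after the CLDN4 start had the highest fold enrichment and was the 1 peak of the 8 with a q-value of at most 0.01. Among the genes called higher over RWPE1-Vector in both ERG lines, CLDN4 had 2 ERG peaks within 20 kb, and CLDN1, CGN and OCLN had 0. Whether these peaks bear on the RNA values was not tested. No ERG ChIP-seq of RWPE1-ERG cells was used here.

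Of the 8 ERG peaks, 6 overlapped an ATAC-seq peak in at least 1 line, and 22.7% of the whole list did. The whole list was not limited to peaks near expressed genes, so these shares are not of like sets. In CDH1 the peaks 23.7 kb and 53.0 kb after the start, whose sequences are given above, overlapped ATAC-seq peaks in 3 of 3 lines and ERK2 peaks of RWPE1-ERG cells, with ERK2 fold enrichments of 4.09 and 2.93. The CDH1 peak 17.0 kb after the start overlapped none of these. At CLDN4 the peak 7.8 kb after the start overlapped an ERK2 peak of RWPE1-ERG cells too, with a fold enrichment of 2.93. The TJP1 peak 112.0 kb before the start, with GGAAGTGA, overlapped ATAC-seq peaks in 3 lines and an ERK2 peak of RWPE1-Vector cells.

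In VCaP cells 2 of the 9 genes had an ERG peak within 20 kb, CLDN4 and F11R, where 24.7% of genes had one, and 0 had one within 1 kb of the start, where 5.17% did. The VCaP peak at CLDN4, chr7:73242548-73242785, overlapped the RWPE1-ERG/mAKT peak at chr7:73242651-73242759, both 2.6 kb before the start. This site was listed for ERG in both cell types and lay in an open region of all 3 RWPE1 lines. The fold enrichment was 3.35 in VCaP and 4.11 in RWPE1-ERG/mAKT. The F11R peak lay 19.8 kb before its start, in intron 7 of USF1, and had a fold enrichment of 3.59. Neither VCaP peak had a q-value of at most 0.01.

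**Figure D5:**
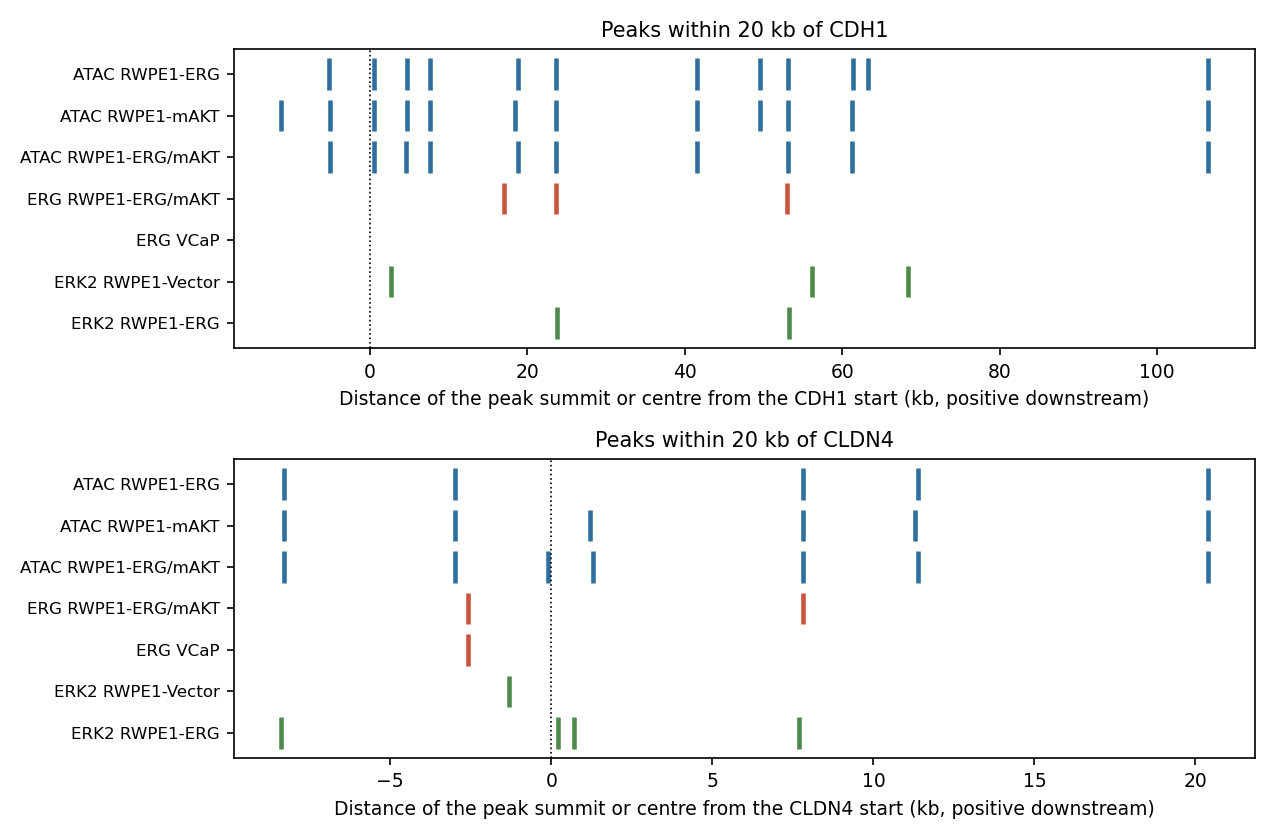
Peaks within 20 kb of CDH1 (top) and CLDN4 (bottom) by list, each drawn as a line at its summit or centre, with the distance from the gene start in kb on the x axis and downstream positive. The ERG peaks of CDH1 at 23.7 and 53.0 kb and that of CLDN4 at 7.8 kb stand beside ERK2 peaks of RWPE1-ERG cells, and CLDN4 has an ERG peak 2.6 kb before the start in both cell types.

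ERK2 peaks of RWPE1-Vector cells lay within 20 kb of 8 of the 9 genes, all but EPCAM, against 76.6% of genes, and those of RWPE1-ERG cells near 7 of the 9, all but EPCAM and F11R, against 33.4%. The RWPE1-Vector list is much longer, with 41276 peaks against 5721. Near the 9 genes, 11 of the 15 ERK2 peaks that RWPE1-ERG cells had overlapped an ATAC-seq peak, where 46.1% of that list did. Of the 25 in RWPE1-Vector cells, 6 did, where 10.6% of the list did. The whole ERK2 lists, too, were not limited to peaks near expressed genes. None of the 25 overlapped any of the 15, and over the whole lists 15.3% of the RWPE1-ERG peaks overlapped a RWPE1-Vector peak and 2.13% of the RWPE1-Vector peaks a RWPE1-ERG peak. Within 1 kb of the start, RWPE1-ERG cells had ERK2 peaks at CLDN4, CLDN7 and OCLN, 3 of 9 against 8.89% of genes, and RWPE1-Vector cells at F11R, 1 of 9 against 13.8%. None of these ERK2 peaks had a q-value of at most 0.01.

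H3K27me3, the mark left by Polycomb repressive complex 2, was not listed within 1 kb of the start of any of the 9 genes in RWPE1-Vector, RWPE1-ERG or ERG S96E cells, where 8.63%, 3.35% and 7.3% of genes had a region, so a count of 0 of 9 is near the background. Within 20 kb of the loci, regions lay near 9 of the 9 genes in RWPE1-Vector, 3 in RWPE1-ERG (OCLN, TJP1 and F11R) and 4 in ERG S96E cells (CLDN7, OCLN, TJP1 and F11R), against 95.2%, 61.1% and 67.7% of genes. The number of these regions was 43, 8 and 5. The whole lists also differ, with 492265, 228233 and 252784 regions, and 0 of the regions near the 9 genes had a q-value of at most 0.01.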

How the data were processed

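RNA-seq values were read from the deposited table, in which the authors gave FPKM per gene and line, pooled over 3 libraries, from reads aligned with TopHat2 and quantified with Cuffdiff. Its columns of fold changes and p-values for pairs of lines were not used, and 4 symbols with several values were left out. Library depth for RNA-seq is unknown. Peaks were called by the authors with MACS2 on hg19 after Bowtie2 alignment and removal of duplicates. For each peak the deposited lists give the pileup (signal), the fold enrichment and the q-value as −log10. ChIP DNA was pooled from 3 experiments before sequencing. Headers, where present, gave 8393459 to 26454542 ChIP reads and 35688481 ATAC-seq fragments. Pooled values and single libraries allow no test.

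Log2 ratios used FPKM + 0.1 and genes that reached an FPKM of 1 in either line. Peaks were assigned within 20 kb of the locus in the table, or 1 kb of the start of the canonical transcript (GENCODE release 44 on GRCh37). An overlap means at least 1 bp. Of the peaks, 0 lay beyond a chromosome end, and 1003 lay on sequences outside the chromosomes of the genome used. Of the 6143 ERG peaks of VCaP, 5919 gave a sequence window. All 9 genes are reported, genes of other lists are named at a 2-fold range over the lines, and the 3 most similar genes for each of the 3 most variable members. CDH3, the catenins, CLDN12, CLDN15, CLDN23, ST14, SPINT1, SPINT2, GRHL2, SNAI2, ZEB1 and ZEB2 fall outside this rule and were named after their values were seen. The genes and lists were chosen with earlier results of these data known. Alternatives are given at the end. A pair of lists, filed under the VCaP input and under the ERG ChIP of LY294002-treated VCaP cells, did not match their labels and were not used, since the former carries the run name of the LY294002 ERG ChIP in its header and the latter has peaks named for RWPE1 ATAC-seq. No ATAC-seq list of RWPE1-Vector cells was analysed here. Some genes of the other lists are not reported here. The code was tested on simulated data and run with Python 3.11.15, numpy 2.4.6, pandas 2.3.3 and matplotlib 3.10.9.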

Additional observations from a re-analysis of the deposited data

Results flagged for a closer look

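The log2 ratio of EPCAM for mAKT had opposite signs with and without ERG, at 0.31 for RWPE1-mAKT over RWPE1-Vector and at -0.16 for RWPE1-ERG/mAKT over RWPE1-ERG. EPCAM was the 1 gene of the 9 in which the effect of a transgene turned direction by at least 1.1-fold on either side. Centred on the median of all genes, the ratio over RWPE1-ERG was -0.11, which is less than 1.1-fold. The difference was not tested, because each line has 1 pooled value.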

How the results depend on the processing

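No paired analysis was possible because the table gives 1 pooled FPKM value per line and no single libraries, and leaving out a library was not possible for the same reason. Of 50 recomputed counts of genes called between lines, 46 stayed within 1.5 times and 4 moved. With a pseudocount of 1 the count in RWPE1-ERG over RWPE1-Vector was 3 in place of 4, because OCLN, at a log2 ratio of 0.52, lost its call. The 4 that moved were all at a fold limit of 2, which is stricter by construction and left 2 genes higher in RWPE1-ERG, 1 in RWPE1-mAKT and 3 in RWPE1-ERG/mAKT over RWPE1-Vector, and 0 in RWPE1-ERG/mAKT over RWPE1-ERG. Centring on the median of all genes moved none of these counts by over 1.5 times but left 8 in place of 9 genes above RWPE1-Vector in RWPE1-mAKT, as TJP1 turned from 0.01 to -0.01. The counts above RWPE1-Vector in RWPE1-ERG and RWPE1-ERG/mAKT stayed at 9. Of 90 recomputed log2 ratios, 81 stayed within 0.1 and 9 moved, all with a pseudocount of 1, and 0 called ratios changed sign. CGN moved most, to 1.05 in RWPE1-ERG over RWPE1-Vector.

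A q-value of at most 0.01 left an ERG peak near 1 of the 9 genes in RWPE1-ERG/mAKT (1 peak) and near 0 in VCaP (0 peaks), and left ERK2 peaks and H3K27me3 regions near 0 of the 9 in every list. Within 5 kb of the locus, VCaP ERG peaks remained near 1 gene and H3K27me3 regions of ERG S96E cells near 2. Within 20 kb of the gene start alone, ERK2 peaks of RWPE1-Vector lay near 5 genes, and H3K27me3 regions near 1 gene in RWPE1-ERG and 2 in ERG S96E cells. The causes were not tested. The span of the canonical transcript, chosen after seeing the data along with the centring of the counts above RWPE1-Vector, moved none of the peak counts by over 1.5 times.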

Other observations

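Transcription factors that act on junction genes also differed between the lines. Of the 7 activators of epithelial genes, 4 of the 7 compared were at least 1.5-fold higher in RWPE1-ERG/mAKT than in RWPE1-Vector and 0 were lower, against 7.13% and 5.06% of all genes. Of the 4, OVOL1 passed the filter on low values only through RWPE1-ERG/mAKT. In RWPE1-ERG over RWPE1-Vector, 1 of the 6 compared was higher (ELF3) and 1 lower (GRHL1), against 9.3% and 4.87% of all genes. In RWPE1-mAKT over RWPE1-Vector, 2 of the 6 compared were higher (GRHL1 and ELF3) and 0 lower, against 3.03% and 2.89%. ELF3, an ETS factor of epithelial cells, had an FPKM of 2.26 in RWPE1-Vector, 5.81 in RWPE1-ERG, 5.57 in RWPE1-mAKT and 23.4 in RWPE1-ERG/mAKT. It was thus higher with either transgene and highest with both. GRHL1, a grainyhead factor, had an FPKM of 1.76, 1.06, 3.2 and 5.42 in the same order, and OVOL1 had 0.422, 0.411, 0.898 and 1.92. The other called gene, GRHL2, had 6.88, 6.69, 10.3 and 11.8. GRHL1 had its lowest value in RWPE1-ERG. The OVOL1 values of RWPE1-ERG and RWPE1-Vector were close to each other and under an FPKM of 1.

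Of the 7 repressors of epithelial genes, 4 were compared in RWPE1-ERG/mAKT over RWPE1-Vector, with 1 higher (SNAI1, which passed the filter only through RWPE1-ERG/mAKT) and 1 lower (SNAI2). Of all genes, 7.13% were higher and 5.06% lower in this comparison. SNAI2, the most abundant of them, had an FPKM of 68.5 in RWPE1-Vector, 55.9 in RWPE1-ERG, 54.9 in RWPE1-mAKT and 35.0 in RWPE1-ERG/mAKT. SNAI1 had an FPKM of 0.591, 0.756, 0.914 and 1.77 in the same order. The Snail family members SNAI1 and SNAI2 thus differed in opposite directions. ZEB1 and ZEB2 stayed under an FPKM of 1 in all 4 lines, at 0.0772 to 0.501 for ZEB1 and 0.0374 to 0.0989 for ZEB2.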
